A study of Mus with 3 samples.

Results

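The proliferating CD8 T cells of MC38 tumors were 182 cells of one pooled single-cell library. A cell belonged to them if its barcode held 500 or more unique molecular identifiers (UMIs, each counting one captured RNA molecule) of genes and had a T cell receptor (TCR) clonotype, with 1 or more UMIs of Cd8a, none of Cd4, and 5 or more UMIs of Mki67, Top2a, Birc5 and Pclaf together. They were 182 of 2046 CD8 T cells with a clonotype, which in turn were part of 3702 barcodes with a clonotype among 5600 barcodes with 500 or more gene UMIs. The same barcodes were read in a gene, a TCR and a hashtag library. The comparison class, called non-cycling below, was 1604 CD8 T cells with no UMI of the 4 genes, and 260 cells with 1 to 4 UMIs were in neither class.

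The study asked how retinoic acid receptor alpha (RARα, encoded by Rara at chr11:98927800-98974942 of GRCm38.p6), a nuclear receptor for the vitamin A metabolite retinoic acid, acts in T cells in tumors. Tumors of MC38, a mouse colon cancer line, were collected on day 16 from mice of 3 genotypes. WT mice were the controls, of a strain that the sources used here do not settle. RARα-KO mice carried floxed Rara and dLck-Cre, a Cre under the distal Lck promoter that acts in T cells, so other cells of the tumor kept the gene and a transcript lacking the deleted part could still be counted. RARα-TG mice carried Rara under the CD2 promoter, which is active in T cells in general. Before pooling, the cells were marked by genotype with hashtag antibodies, which were C0301 on WT, C0302 on RARα-KO and C0303 on RARα-TG cells. Sorted CD45.2+ CD3+ T cells were pooled with total tumor cells, which were sorted per the labels and unsorted per the study's methods, so that shares among all barcodes are set in part by the sort. The labels also name spleen and activated naive CD8 T cells, against their own tumor protocol, which was followed here. How many mice stand behind each genotype is not given in the sources used here, so each was 1 sample. No test was made between genotypes, and every 95% interval below covers counting error only.

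A T cell that has met its antigen enters the cell cycle and divides many times. Cyclins and cyclin-dependent kinases drive it out of G1. The MCM helicase, loaded before S phase, is fired in S phase while nucleotide and histone synthesis run at a high rate. In G2 and M phase the mitotic kinases, kinetochores and spindle separate the chromosomes. In tumors, dividing CD8 T cells are known among both precursor and effector states, and a TCR shared by many cells marks descent from one cell that divided.

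The TCR sequences that the clonal results turn on came from large RARα-KO clonotypes, and are the deposited nucleotide sequences of the third complementarity-determining region (CDR3), the part of each chain that touches antigen. All 6 beta chains used TRBV16. Capitals mark the 9 bases at the 5′ end that all 6 beta sequences shared. Clonotype1, clonotype4 and clonotype13 held proliferating cells, and clonotype3, clonotype18 and clonotype20 held none.
clonotype1 beta (TRBJ1-3): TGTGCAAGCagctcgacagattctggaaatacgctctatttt
clonotype4 beta (TRBJ2-1): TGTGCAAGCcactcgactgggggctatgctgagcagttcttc
clonotype13 beta (TRBJ2-1): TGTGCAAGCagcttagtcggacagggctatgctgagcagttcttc
clonotype3 beta (TRBJ1-4): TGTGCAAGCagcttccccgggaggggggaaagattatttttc
clonotype18 beta (TRBJ1-4): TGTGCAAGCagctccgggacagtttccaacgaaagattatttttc
clonotype20 beta (TRBJ1-1): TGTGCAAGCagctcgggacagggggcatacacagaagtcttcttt

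The alpha chains of the same clonotypes are shown because they shared a 3′ end. All used TRAJ22, and capitals mark the 26 bases at the 3′ end that were the same in all 6. The same 26 bases end the alpha sequences of RARα-KO clonotype11, clonotype21, clonotype49 and clonotype55, which also used TRAJ22. The bases before this end differed between clonotype1, clonotype3 and the printed TRAV12D-1 clonotypes. The 6 are a selection. Clonotype11 (0 of 24 cells proliferating) and clonotype21 (2 of 20) have the TRBV, TRAV and TRAJ genes of clonotype1 and are not printed. Clonotype4, clonotype13, clonotype18 and clonotype20 had one identical alpha sequence, with TRAV12D-1, while clonotype1 and clonotype3 used TRAV14N-3.
clonotype1 alpha: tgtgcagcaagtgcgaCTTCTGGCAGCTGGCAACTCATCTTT
clonotype3 alpha: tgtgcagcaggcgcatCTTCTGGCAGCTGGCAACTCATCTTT
clonotype4, clonotype13, clonotype18 and clonotype20 alpha: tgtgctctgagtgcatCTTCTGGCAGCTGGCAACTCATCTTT

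The label was first checked against the markers. The members were chosen by Mki67 (chr7:135689784-135716450), a protein of the surface of mitotic chromosomes, Top2a (chr11:98992947-99024199), the topoisomerase that untangles replicated DNA, Birc5 (chr11:117849237-117855743), survivin of the chromosomal passenger complex, and Pclaf (chr9:65890323-65903551), a partner of the replication clamp PCNA. Their values are therefore a description. Mki67 had a median of 3.5 UMIs per member for WT (0 to 24), 4 for RARα-KO (0 to 34) and 3 for RARα-TG (0 to 11). Pclaf had the highest medians of the 4, with 10.5, 9 and 13.5 UMIs in the same order. Hist1h1b, a linker histone of S phase that the rule did not read, was measured at 701 CPM (UMIs of the gene scaled to an equal total of gene UMIs) in members against 15.1 in non-cycling cells for WT, at 654 against 8.26 for RARα-KO, and at 807 against 47.8 for RARα-TG. Barcodes of 10 to 100 UMIs, which hold mostly free RNA, had 283 CPM of Hist1h1b, so the non-cycling cells were below the free RNA and the members above it in every genotype.

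Near the threshold the values ran on without a break. The 10 cells with exactly 5 UMIs of the 4 genes had medians of 32.5 UMIs of S phase genes and 33.5 of G2/M genes. The 12 cells with exactly 4 UMIs had 23.5 and 19, and the 21 cells with 3 UMIs had 8 and 12, at a lower median depth (8549 gene UMIs against 13584 at 5 UMIs). In WT, the summed S phase genes were at 906 CPM in cells with no UMI of the 4 genes, 1226 at 1 to 2 UMIs, 1818 at 3 to 4, 2979 at 5 to 9 and 5648 at 10 or more. RARα-KO cells followed the same order, from 972 to 5347 CPM. Most members were far inside: 63 of 76 WT members and 69 of 85 RARα-KO members had 10 or more UMIs.

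The members carried more RNA molecules than non-cycling cells. The median was 13487 against 5246 gene UMIs per cell for WT, 15964 against 4965 for RARα-KO and 10375 against 4248 for RARα-TG, a ratio of 2.57, 3.22 and 2.44. The median number of genes was 3473 against 1919 for WT, 3809 against 1818 for RARα-KO and 2761 against 1692 for RARα-TG. The rule counts UMIs and so reaches deep cells more easily. TCR beta UMIs, from the separate TCR library, had medians of 22 against 10, 28 against 14 and 18.5 against 8, which per 1000 gene UMIs was 1.56 against 1.98 for WT, 1.91 against 2.72 for RARα-KO and 2.11 against 1.84 for RARα-TG. No productive alpha chain was read in 6 of 182 members (3.30%) and in 255 of 1604 non-cycling cells (15.9%). The median mitochondrial share was close to 1% in both classes, between 0.833% and 1.12%.

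Some members also carried RNA of other cells. Of 182 members, 38 (20.9%, 95% interval 15.2 to 27.5) had 3 or more UMIs of MC38 or stromal, myeloid, dendritic, neutrophil or B cell markers together, against 108 of 1604 non-cycling cells (6.73%, 5.56 to 8.07), at the greater depth of the members. Such cells are called mixed below. Among WT members 14 of 76 were mixed, and 15 of 85 RARα-KO and 3 of 8 RARα-TG members. In 11 members there were 30 to 233 UMIs of the 10 MC38 or stromal markers, in barcodes of 17154 to 77198 gene UMIs, although Krt8 was at 0. These were 3 WT, 7 RARα-KO, 0 RARα-TG members and 1 without a single hashtag. The summed MC38 or stromal markers were at 206 CPM for WT, 531 for RARα-KO and 0 for RARα-TG members, and the myeloid markers at 10.9, 299 and 107 CPM. Of the other defining genes, Flt3, Clec9a and Cd209a of dendritic cells, Ms4a1 of B cells, Ncr1 of NK cells and Trdc of gamma delta T cells were at 0 in all members. Other genes of these lists were found, so that 5 of 8 dendritic, 3 of 5 B cell, 2 of 4 NK and 3 of 4 gamma delta genes were detected. At least 1 dendritic UMI was found in 58 members (31.9%) and 219 non-cycling cells (13.7%), at 83.5 against 430 CPM. NK markers were at 17.5 against 7.50 CPM. Several results that rest on the mixed cells are given with and without them.

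The share of CD8 T cells in the proliferating class was close in the 3 genotypes under the hashtag rule used here. It was 76 of 792 cells for WT (9.60%, 7.64 to 11.9), 85 of 1039 for RARα-KO (8.18%, 6.59 to 10.0) and 8 of 101 for RARα-TG (7.92%, 3.48 to 15.0), and each interval held the shares of the other genotypes. A further 13 members had no single hashtag. With every cell thinned to 2000 UMIs and a threshold of 2 UMIs, the shares were 8.03%, 6.59% and 8.16%. Without mixed cells they were 8.54%, 7.22% and 5.38%. With a hashtag 10 times above the next, the WT share was 36 of 206 (17.5%, 12.6 to 23.4), while RARα-KO had 78 members of 975 cells (6.37 to 9.88%) and RARα-TG 7 of 50 (14.0%, 5.82 to 26.7), so that the WT and RARα-KO intervals did not overlap under this rule. The stricter rule kept 36 of 76 WT members but only 206 of 792 WT CD8 T cells, while in RARα-KO it kept 975 of 1039. In WT, the highest hashtag had a median of 2069 UMIs in members and 1596 in non-cycling cells. In RARα-KO these medians were 4575 and 3841. How far the stricter rule itself favored members in WT was not tested, so its shares are not read as a genotype difference.

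CD4 T cells (1 or more Cd4 UMIs, none of Cd8a or Cd8b1) met the same 4-gene threshold at lower shares. The shares were 8 of 195 for WT (4.10%), 9 of 241 for RARα-KO (3.73%) and 10 of 245 for RARα-TG (4.08%). Over all cells it was 30 of 717 CD4 T cells (4.18%, 2.84 to 5.92) against 182 of 2046 CD8 T cells (8.90%, 7.70 to 10.2). At an equal depth of 2000 UMIs the shares were 4.21% (2.84 to 5.99) and 7.44% (6.33 to 8.68). Both pairs of intervals were apart, and the difference was in the same direction in each genotype. The cycle genes stood as far above the non-cycling level in CD4 as in CD8 T cells, with the summed S genes at a log2 ratio of 2.53 against 2.41 and the G2/M genes at 2.35 against 2.47.

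**Figure D1:**
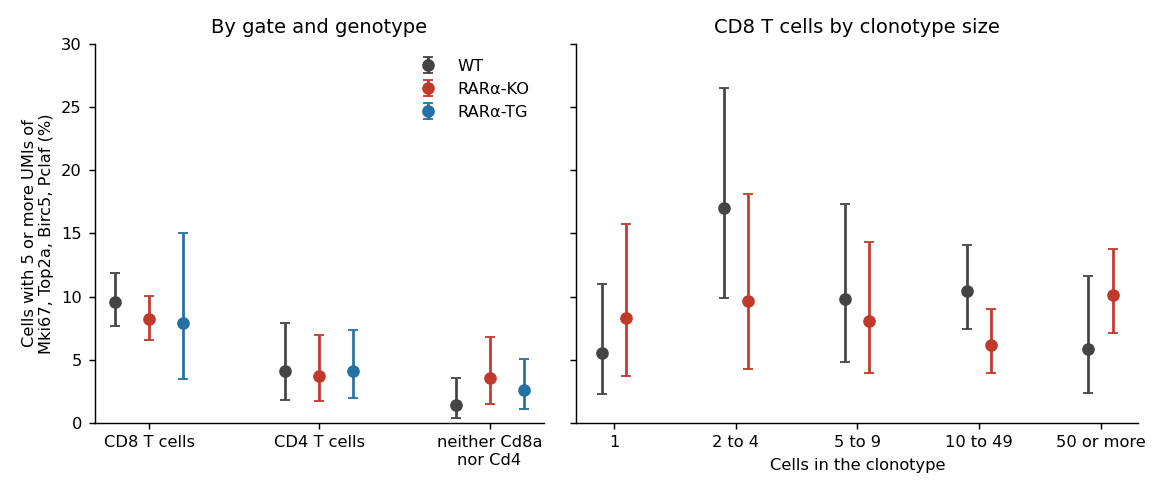
Share of cells that met the 4-gene threshold (percent, vertical axis), by genotype for CD8 T cells, CD4 T cells and T cells with neither transcript (left) and by clonotype size for CD8 T cells (right), with exact 95% intervals as bars. CD8 T cells sit between 7.92% and 9.60%, CD4 T cells between 3.73% and 4.10%.

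For genes that the rule did not read, UMIs were summed over the cells of a class within a genotype, scaled to CPM, and compared as the log2 ratio of members to non-cycling cells. As the members were chosen from the same counts, these ratios describe the cells and were not tested. Of 9000 genes compared, 295 (3.28%) were 2-fold or more higher in members in all 3 genotypes and 43 (0.478%) were 2-fold or more lower. In WT and RARα-KO alone, 710 (7.89%) were higher and 174 (1.93%) lower. Without mixed cells the counts in all 3 genotypes were 277 and 31. The median over all genes was near 0, at -0.04 for WT, 0.08 for RARα-KO and -0.01 for RARα-TG.

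The cyclins and cyclin-dependent kinases stood far above the non-cycling cells, with 6 of 15 past 2-fold in all 3 genotypes and 11 in WT and RARα-KO. Ccna2, the cyclin of S and G2 phase, was at 197 against 0.87 CPM for WT, 218 against 0.85 for RARα-KO and 107 against 2.39 for RARα-TG. Cdk1, the kinase that starts mitosis, was at 131 against 1.46 CPM for WT, 133 against 1.70 for RARα-KO and 107 CPM for RARα-TG members, where no UMI was found in non-cycling cells. The E2F and RB family, which decides on entry into S phase, had 5 of 13 genes higher in all 3 genotypes, with list medians of 2.33, 2.35 and 0.78. The cyclin-dependent kinase inhibitors did not share a direction. Of 6 compared, 1 was 2-fold higher in all genotypes, Cdkn2c at 1.84, 2.33 and 2.73, and none was 2-fold lower. Without mixed cells none of 6 was 2-fold higher in all genotypes. Cdkn1b, the inhibitor p27 of resting T cells, stood at -0.61 for WT, -1.01 for RARα-KO and -1.09 for RARα-TG. Cdkn1a, the p53 target p21, stood at 1.14, 0.67 and 0.73.

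Genes of DNA replication were higher in members nearly without exception in WT and RARα-KO. Of 19 licensing genes, which load the replicative helicase, 18 were 2-fold higher there and 10 in all 3 genotypes. Mcm3, a helicase subunit, was at 248 against 33.2 CPM for WT, 239 against 26.9 for RARα-KO and 297 against 28.7 for RARα-TG. Of 24 genes of the replication fork and its polymerases, 23 were higher in WT and RARα-KO and 19 in all 3. Among 20 genes of nucleotide synthesis 12 and 7 were higher by the same counts. Rrm2, the ribonucleotide reductase subunit made in S phase, was at 426 against 2.62 CPM for WT, 361 against 4.45 for RARα-KO and 261 against 2.39 for RARα-TG. Histone genes followed, with 26 of 40 compared higher in all 3 genotypes and 27 of the 67 listed below the count filter. Their sum was 4701 against 562 CPM for WT, 4066 against 444 for RARα-KO and 6145 against 777 for RARα-TG. Asf1b (chr8:83955694-83970195), a chaperone that hands histones to new chromatin and that was in no list, was at 187 against 4.66 CPM, 165 against 3.81 and 261 against 4.78.

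Mitotic kinases and spindle genes had higher medians than the histones (3.82, 3.40 and 3.31) in WT and RARα-KO. Of 14 mitotic kinases and their regulators, 14 were 2-fold higher in WT and RARα-KO and 9 in all 3 genotypes, with medians of 4.75, 5.66 and 2.85. Of 32 spindle and kinetochore genes, 31 and 20 were higher, with medians of 4.82, 5.44 and 3.58. Stmn1, a regulator of microtubule turnover, was at 446 against 11.4 CPM for WT, 395 against 11.2 for RARα-KO and 807 against 14.3 for RARα-TG. All 20 genes of chromosome structure were higher in WT and RARα-KO and 17 in all 3. Hmgb2, a DNA-bending chromatin protein, was at 1694 against 272 CPM, 1810 against 307 and 2871 against 368. Among 11 genes of mitotic exit the counts were 7 and 5, and among 18 of DNA damage and repair 16 and 9. Without mixed cells the counts in all 3 genotypes were 6 of 11 mitotic kinases, 18 of 28 spindle genes and 6 of 16 repair genes. Outside the lists, the genes with the highest ratios were Esco2, which joins sister chromatids, Ska1, of the kinetochore, Asf1b, Neil3, a DNA glycosylase, Aunip, Fignl1, Shcbp1, Mastl, the mitotic kinase Greatwall, Tcf19 and Mtfr2.

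**Figure D2:**
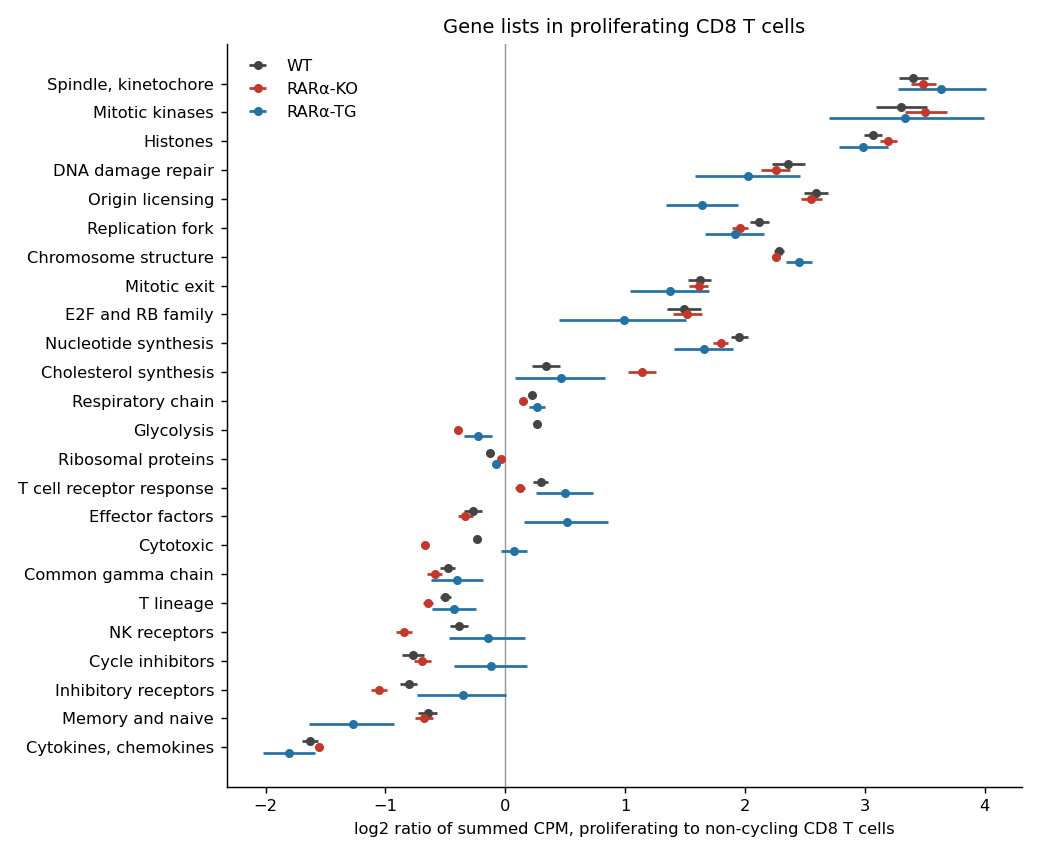
Log2 ratio of summed CPM, proliferating to non-cycling CD8 T cells (horizontal axis), for the gene lists (rows), with one point per genotype and its exact 95% interval. The cycle lists, apart from the cycle inhibitors, sit to the right of 0 in every genotype, ribosomal protein genes near 0, and the points of the cytokine, inhibitory receptor and memory lists to the left.

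Most lists outside the cycle were lower per gene UMI or near 0. The memory and homing list had 4 of 13 genes 2-fold lower in all 3 genotypes, against 0.478% of all genes. They were Il7r, the interleukin 7 receptor, Tcf7, the factor of stem-like T cells, S1pr1, which guides exit from tissue, and Satb1, a chromatin organizer of T cells. Without mixed cells 2 of 12 genes were, Il7r and Tcf7, while S1pr1 stood at -2.92, -1.04 and -0.56 and Satb1 at -0.98, -1.06 and -0.94. The list was at 1363 against 2134 CPM for WT, 1272 against 2036 for RARα-KO and 866 against 2093 for RARα-TG. Tcf7 was at 9.97 against 51.5 CPM for WT, 14.8 against 34.3 for RARα-KO and 59.3 against 220 for RARα-TG. Per cell, without the scaling, the picture was less uniform: the log2 ratio for Tcf7 was -1.02 for WT, 0.40 for RARα-KO and -0.78 for RARα-TG. Il7r had 284 and 245 CPM in non-cycling WT and RARα-KO cells against 102 and 84.3 in members, but 1.62 and 1.40 UMIs per cell against 1.47 in members of each. Klf2 of the same list went the other way in WT and RARα-KO, with log2 CPM ratios of 1.27 and 1.18, and stood at -1.22 in RARα-TG.

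The effector lists had few genes past 2-fold. The 16 cytotoxic genes had none past 2-fold in all 3 genotypes, with medians of -0.39, -0.48 and -0.45. Gzmb, the main granzyme of killer cells, was at 3032 CPM in members against 2454 for WT, 3217 against 5786 for RARα-KO and 1827 against 1797 for RARα-TG. The cytokine list had 1 of 11 genes 2-fold lower in all 3 genotypes, Ccl5 (chr11:83525778-83530518), a chemokine of effector and memory T cells. Ccl5 was at 1229 against 4932 CPM for WT, 2090 against 14213 for RARα-KO and 1886 against 7464 for RARα-TG. It was lower per cell as well, at 17.8 against 28.2 UMIs for WT, 36.5 against 81.1 for RARα-KO and 19.9 against 36.3 for RARα-TG. Ccl5 made up 2252 CPM of the free RNA, so the members of all 3 genotypes were under the free RNA level. Of 12 inhibitory receptors and exhaustion genes, 2 were 2-fold lower in all 3 genotypes, Tigit and Cxcr6, a chemokine receptor of tissue T cells. Tigit was at 153 against 347 CPM in WT and 149 against 426 in RARα-KO, but at 2.22 against 1.99 and 2.60 against 2.43 UMIs per cell.

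**Figure D3:**
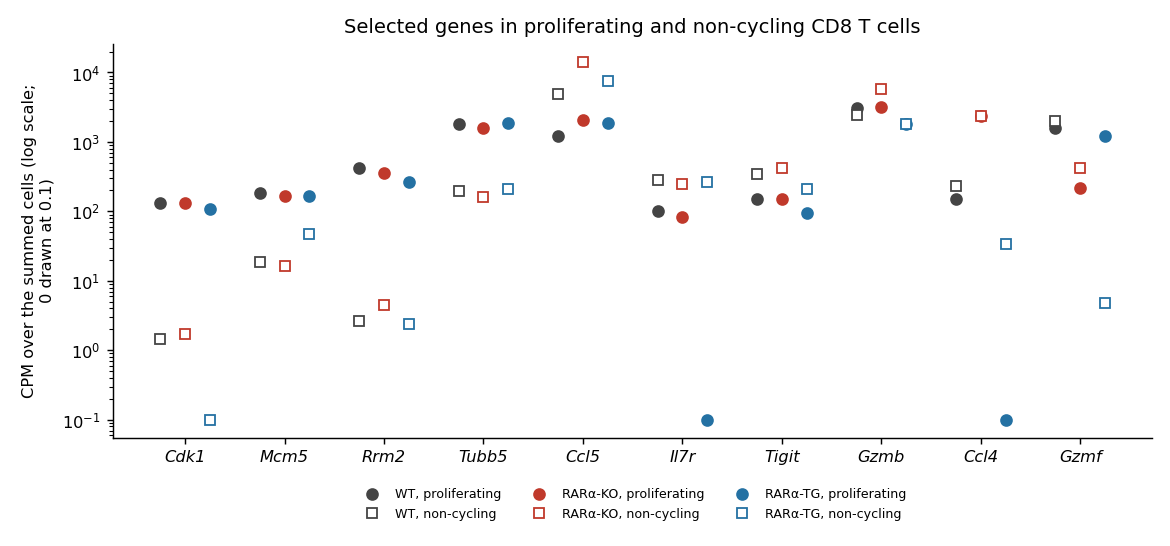
Level of single genes in CPM (log axis, with 0 drawn at 0.1) in proliferating and non-cycling CD8 T cells of each genotype. Filled circles are proliferating and open squares non-cycling cells. Rrm2 in WT is at 426 against 2.62, and Ccl5 in WT at 1229 against 4932.

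The summed T cell identity genes were at log2 CPM ratios of -0.50 (WT), -0.64 (RARα-KO) and -0.43 (RARα-TG). Per cell, Cd3e of the TCR complex was at 0.79, 0.80 and 0.83 and Cd8b1, the partner of Cd8a, at 0.79, 0.97 and 0.72. Genes of oxidative phosphorylation had small positive medians in all 3 genotypes (0.29, 0.27 and 0.30 over 86 genes), and 81 ribosomal protein genes were near 0. The cholesterol synthesis list had positive medians of 0.44 for WT, 1.19 for RARα-KO and 0.33 for RARα-TG, with 1 of 17 genes, Fdft1, past 2-fold in all 3. Its sum in RARα-KO was 680 against 307 CPM, a log2 ratio of 1.14 that was 0.80 without mixed cells. The TCR response list had 1 of 14 genes, Fos, past 2-fold in all 3, and 0 of 13 without mixed cells, where Fos was at -3.55 in WT. Its sum stood at 0.30, 0.12 and 0.50 with mixed cells but at -0.34, 0.05 and 0.72 without them. The common gamma chain cytokine receptors summed to -0.48, -0.59 and -0.40, and the NK receptors to -0.39, -0.85 and -0.15. Glycolysis genes differed in direction between genotypes, with the sum at 20344 against 16893 CPM in WT and 18343 against 24074 in RARα-KO, a log2 ratio of 0.27 and -0.39. Rara itself was at 54.4 CPM for WT, 58.7 for RARα-KO and 94.9 for RARα-TG members, and at 88.5, 84.3 and 222 CPM in non-cycling cells. Counts over the whole gene cannot show the deleted part, so the level in RARα-KO does not check the label.

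Genes with the lowest ratios outside the lists were Tcp11l2 (chr10:84576947-84614355), Kdm5b, a histone demethylase, Slfn1, Gpr55, H2-Eb1, Prkcz, Trbv13-1, Hbp1, a repressor linked to arrest in G1, Cd86 and Heca. Tcp11l2 was at a log2 CPM ratio of -3.31 for WT, -4.48 for RARα-KO and -2.62 for RARα-TG, and was lower per cell too (-1.96, -2.87 and -1.50). Slfn1, of the Schlafen family, was at -2.31, -2.11 and -3.05, or -0.97, -0.50 and -1.93 per cell. Btg1, an antiproliferative gene that was not among these lowest genes, was at 412 against 1050 CPM in WT and 504 against 1333 in RARα-KO, and per cell at a ratio of -0.01 and 0.21. In RARα-TG it was at 629 against 679 CPM, and per cell at 6.63 against 3.30 UMIs. A single cell gave 58.5% of the UMIs of Btg1 in RARα-TG members. H2-Eb1, which was below the count filter in WT with 1 UMI in members and 13 in non-cycling cells, and Cd86 are genes of antigen-presenting cells, whose dendritic cell markers summed to 83.5 CPM in members and 430 CPM in non-cycling cells, and the part of such RNA in these ratios was not tested.

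Within the members, S phase and G2/M genes were expressed side by side. A member had a median of 74.5 UMIs of the 42 S genes for WT (4 to 169), 82 for RARα-KO (6 to 270) and 52.5 for RARα-TG (23 to 73). For the 48 G2/M genes the medians were 75.5 (10 to 618), 95 (13 to 784) and 82.5 (16 to 135). The S sum was above the G2/M sum in 36 of 76 WT members (47.4%, 35.8 to 59.2), 33 of 85 in RARα-KO (38.8%, 28.4 to 50.01) and 2 of 8 in RARα-TG (25%, 3.19 to 65.1), so the intervals overlapped. The cut divides a range, and 17 WT, 23 RARα-KO and 1 RARα-TG members lay within 1.25-fold of it. Only 7 WT and 7 RARα-KO members had an S sum over 2 times the G2/M sum, and 13 and 16 had the reverse. Histone genes, in neither list, were at 3439 CPM (3285 to 3599) in the WT members with more S UMIs and 5924 (5724 to 6129) in the others. In RARα-KO these were 2931 and 4720 CPM. Medians over single cells had the same order, 2011 against 6633 in WT and 924 against 1877 in RARα-KO. The cytotoxic genes had the opposite order, with 12798 against 10941 CPM in WT and 12828 against 9232 in RARα-KO.

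**Figure D4:**
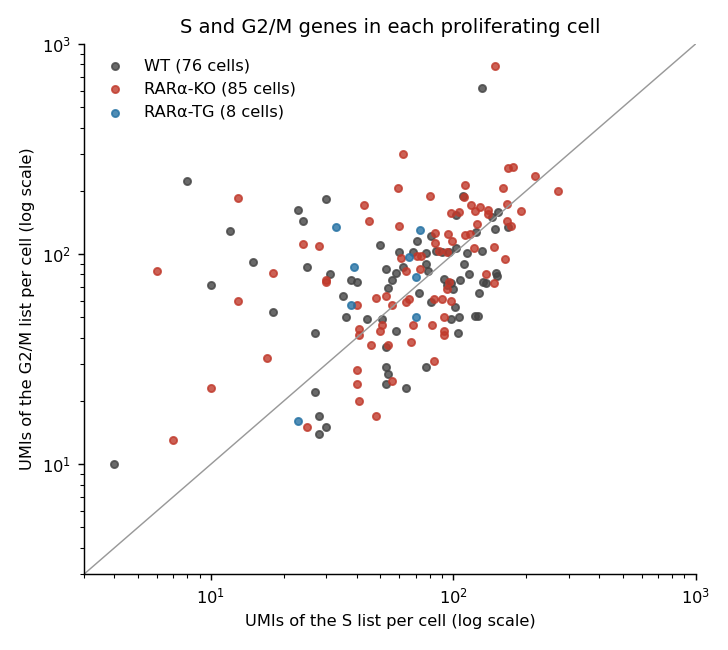
UMIs of S phase genes (horizontal axis) against UMIs of G2/M genes (vertical axis) in each of the proliferating CD8 T cells with a single hashtag, both on log axes, coloured by genotype. The cells form one cloud along the line of equal sums, with 36 of 76 WT and 33 of 85 RARα-KO members on the S side.

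Proliferating cells came from clonotypes of all sizes. A clonotype's size is the number of cells with its number in one genotype. In WT the share was 7 of 127 in clonotypes of 1 cell (5.51%, 2.24 to 11.0), 15 of 88 in those of 2 to 4 (17.0%, 9.87 to 26.6), 10 of 102 in those of 5 to 9 (9.80%), 37 of 355 in those of 10 to 49 (10.4%) and 7 of 120 in those of 50 or more (5.83%). In RARα-KO the same shares were 8.33%, 9.64%, 8.06%, 6.15% and 10.1%. There was no steady order by size in either genotype. In RARα-TG, 7 of 86 single cells (8.14%) and 1 of 15 others (6.67%) were proliferating. Of the WT members 57.9% were in clonotypes of at least 10 cells, as were 60.1% of WT non-cycling cells, and in RARα-KO these were 69.4% and 70.4%. TRBV16 was used by 50 of 85 RARα-KO members (58.8%) and 487 of 827 non-cycling cells (58.9%), against 6 of 76 (7.89%) and 61 of 601 (10.1%) in WT, so the members had the V gene use of their genotype.

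Single RARα-KO clonotypes were less alike. The 76 WT members belonged to 47 clonotypes, with at most 6 in one. The 85 RARα-KO members belonged to 37, and clonotype1 alone held 21 of them (24.7%). In clonotype1, 21 of 119 CD8 T cells were proliferating (17.6%, 11.3 to 25.7), in clonotype4 10 of 76 (13.2%, 6.49 to 22.9) and in clonotype13 7 of 29 (24.1%, 10.3 to 43.5). In clonotype3, which differs from clonotype1 in its CDR3 sequences printed above but has the same TRBV, TRAV and TRAJ genes, 0 of 77 cells were, which allows a share of up to 3.90%, with an exact upper bound of 4.68%. The intervals of clonotype1 and clonotype3 did not overlap. A further 7 cells of clonotype3 had 1 to 4 UMIs of the 4 genes, and its non-cycling cells were shallower than those of clonotype1, with a median of 4398 against 6021 UMIs. An alpha sequence was read in 33 cells of clonotype3. Both clonotypes were selected here for their shares, so the contrast is a description.

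Among the 4 clonotypes with one alpha sequence, clonotype4 and clonotype13 had the shares above, while clonotype18 had 0 of 20 and clonotype20 0 of 21. Together they had 17 of 146 (11.6%, 6.93 to 18.0). Of 23 RARα-KO clonotypes with 10 or more CD8 T cells, 11 had no proliferating cell, in 259 cells. Of 19 such WT clonotypes, 2 had none, in 32 cells, and the highest share was 6 of 36 in clonotype10 (16.7%). Among the 11 RARα-KO clonotypes with none, clonotype23 (0 of 17) had the beta sequence of clonotype4, with no alpha sequence read. When clonotype numbers with an identical beta CDR3 sequence were joined, clonotype1 had 21 of 125 (16.8%) and clonotype4 10 of 95 (10.5%). At this number of cells, shares of 0 in clonotype18 and clonotype20 allowed up to 15% and 14.3%, above the 8.18% of all RARα-KO CD8 T cells, so a lower share was not detectable there.

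**Figure D5:**
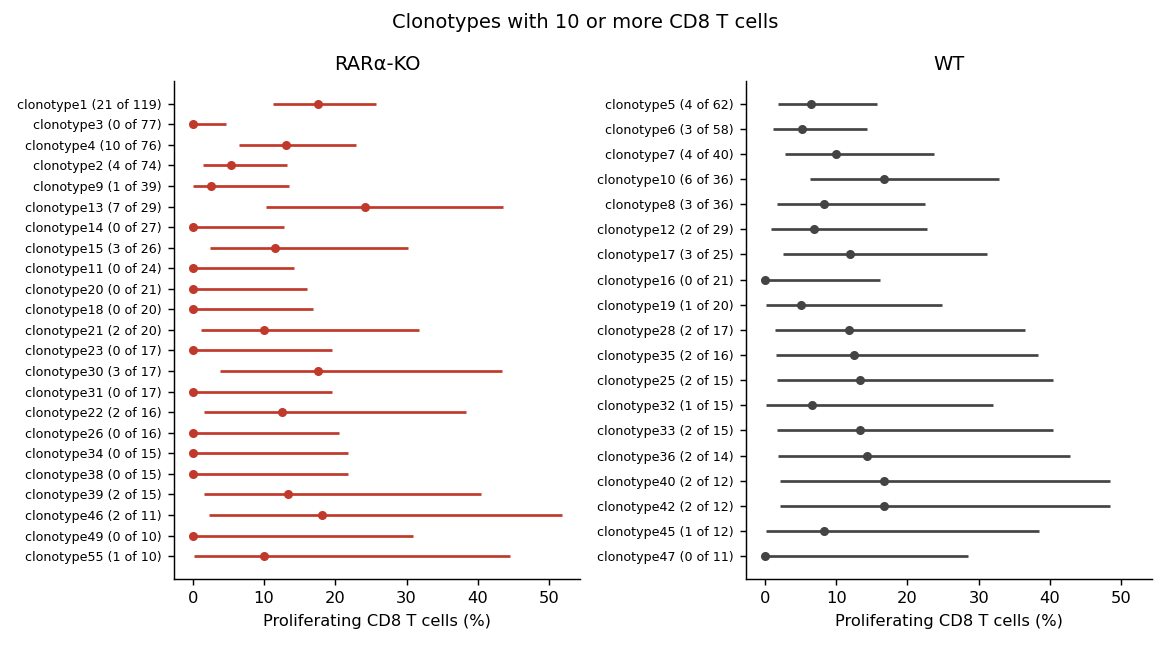
Percent of CD8 T cells that were proliferating (horizontal axis), with exact 95% intervals, for the WT and RARα-KO clonotypes of 10 or more CD8 T cells (rows). RARα-KO clonotype1 is at 17.6% and clonotype3 at 0%.

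Between RARα-KO and WT, the summed S, G2/M, licensing and spindle genes of the members were close, while some other cycle lists were further apart. WT is the common reference of both comparisons below, so they are not independent. The summed S genes of RARα-KO members were at a log2 ratio to WT of -0.09 (-0.14 to -0.04), the G2/M genes at 0.06 (0.01 to 0.10), the licensing genes at -0.07 (-0.15 to 0.00), the spindle genes at -0.03 (-0.11 to 0.04) and the histones at -0.21 (-0.26 to -0.16). The mitotic kinases were at 0.23 (0.10 to 0.36) and the genes of nucleotide synthesis at -0.17 (-0.24 to -0.11). The cycle inhibitors were at 0.40 (0.30 to 0.51), and at 0.69 (0.56 to 0.81) without mixed cells. Cdkn1a was at 348 CPM in RARα-KO against 151 in WT members, beside 219 against 68.7 in non-cycling cells. Of the 42 S genes none was 2-fold apart in either direction, and of 47 G2/M genes 2 were higher and none lower. Over all 8452 genes compared, 574 (6.79%) were 2-fold or more higher in RARα-KO and 1.63% lower, and without mixed cells 5.15% and 2.21% of 7384. In the 8 RARα-TG members the S genes were at -0.10 (-0.25 to 0.05), the G2/M genes at 0.33 (0.22 to 0.45) and the histones at 0.39 (0.25 to 0.52). Without the 3 mixed cells the G2/M genes were at 0.41 (0.26 to 0.55) and the histones at 0.76 (0.62 to 0.90). Then 15 of 37 histone genes were 2-fold higher and 4 lower, against 4 of 38 higher and 4 lower with mixed cells. Over all genes compared between RARα-TG and WT, 556 of 4657 were 2-fold higher and 576 lower without mixed cells. With them these were 483 of 5787 higher and 814 lower.

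Effector genes lay further apart between RARα-KO and WT members. The summed cytokine list was at a log2 ratio of 1.68 (1.61 to 1.74), with 4 of 12 genes 2-fold higher and 5 lower, and a median of -0.01. Without mixed cells it was at 1.87 (1.79 to 1.95), with 5 of 10 genes 2-fold higher and 3 lower, and a median of 0.99. Ccl4, a chemokine of activated T cells, was at 2366 CPM in RARα-KO and 151 in WT members, a ratio of 3.97 (3.75 to 4.21), beside 3.31 in non-cycling cells. A single cell gave 42.6% of the RARα-KO UMIs of Ccl4 and another 45.8% of the WT UMIs, and without clonotype1 the level was 1197 CPM. Ccl3 was at 840 against 23.6 CPM, with 52.9% from 1 cell and 272 CPM without clonotype1. Ifng, the main interferon of T cells, was at 384 against 99.7 CPM (1.95, 1.65 to 2.25), with 33.3% from 1 cell and 206 CPM without clonotype1, beside a ratio of 1.68 in non-cycling cells. For all 3 genes the RARα-KO level without clonotype1 was above the WT level. Ccl4 was found in 43.5% (32.8 to 54.7) of RARα-KO and 30.3% (20.2 to 41.9) of WT members. For Ccl3 these were 22.4% (14.0 to 32.7) and 13.2% (6.49 to 22.9), and for Ifng 51.8% (40.7 to 62.7) and 35.5% (24.9 to 47.3). The intervals overlapped for each gene. Without mixed cells the ratios were 5.56 for Ccl3, 4.05 for Ccl4 and 2.72 for Ifng.

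The granzymes went in both directions. Gzmf was at 218 CPM in RARα-KO against 1609 in WT members (-2.88, -3.06 to -2.71), beside -2.27 in non-cycling cells. Without mixed cells Gzmf was at -2.46. Gzmc was at 183 against 732 CPM and Gzme at 125 against 521, with ratios of -1.74 and -2.68 in non-cycling cells. All 104 UMIs of Gzmf in RARα-TG members came from 1 cell (100%). Gzmk, a granzyme of memory-like cells, was at 274 against 87.9 CPM (1.64, 1.32 to 1.97), and Gzma at 879 against 429 (1.04, 0.88 to 1.19). In non-cycling cells Gzma was closer, at 869 against 763 CPM. It was found in 34 of 85 RARα-KO and 12 of 76 WT members, with 20.9% and 27.5% of its UMIs from 1 cell. Gzmb was at 0.09 (0.02 to 0.15) in members and 1.24 in non-cycling cells. Tnfrsf9, the costimulatory receptor 4-1BB, was at 681 against 238 CPM (1.52, 1.32 to 1.72), beside 1.73 in non-cycling cells. Irf4, a factor induced by the TCR, was at 97.8 against 20.9 CPM (2.23, 1.59 to 2.93), beside 0.81. Ccr7, a lymph node homing receptor, was at 70.1 against 231 CPM (-1.72, -2.06 to -1.39), beside -1.29. All of these genes had the same sign in members and non-cycling cells, with Gzmb near 0 in members. Without mixed cells Irf4 was at 2.54, Tnfrsf9 at 1.55, Gzmk at 1.38 and Ccr7 at -1.68.

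Of the 10 genes at the ends of the RARα-KO to WT range, 4 were receptor segments. The lowest ratios of RARα-KO to WT were those of Trbv15, Penk, an enkephalin precursor, Trbv13-1, Trbv20 and Gzmf. The highest were those of Trav14n-3, the alpha segment of clonotype1, at 151 against 0.91 CPM, and of Ccl2, Gm43305, Cxcl2 and Lyz2. Ccl2, Cxcl2 and Lyz2 are genes of myeloid or stromal cells, whose markers were higher in RARα-KO members by the values above. In the RARα-TG members, which had 84290 UMIs in all, the lowest ratios to WT were those of Jun, Il1r2, Egr1, Rgs16 and Gzme, and the highest those of Klra5, Cd7, Ramp1, Fcer1g and Nrarp. Both rankings included the mixed cells and are not given without them. One RARα-TG cell gave 67.9% of the RARα-TG UMIs of Cd7, and 1 WT cell gave 86.8% of the WT UMIs of Jun. The summed glycolysis genes of RARα-TG members were at -1.31 (-1.42 to -1.20) and the inhibitory receptors at -0.96 (-1.31 to -0.62). Without the 3 mixed cells of the 8, these were -1.28 (-1.43 to -1.13) and -1.96 (-2.59 to -1.39).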

How the data were processed

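One pool of MC38 tumor cells from all 3 genotypes was read in gene, hashtag and TCR libraries. The authors aligned the reads to mm10 and deposited raw UMI counts for every barcode. Cell Ranger 6.1.0 is named in the submitters' processing notes, while the matrix itself was written by a different release, so which one made the counts is not settled. A deposited table of TCR contigs gave clonotype numbers and CDR3 sequences with read and UMI counts. The full contig records were not used. The number of sample columns left unused was 0.

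Genotype came from the highest hashtag, at 10 or more UMIs and 3 times the next. This removes doublets between genotypes only where neither hashtag is 3 times the other. The median of the highest hashtag in non-cycling cells was 1596 UMIs for WT, 3841 for RARα-KO and 2066 for RARα-TG, so some such doublets can remain. No doublet caller was run, so doublets within a genotype remain. Cells were not filtered on mitochondrial RNA. Genes entered a ratio with 20 or more UMIs over both classes in WT and in RARα-KO, or over both genotypes. The genes named outside the lists had their own minimum of 50 UMIs in all, so 1 of them, H2-Eb1, was not among the genes compared. In ratios, 3 UMIs stood in for a count of 0. Intervals were exact at 95% (Clopper-Pearson for shares, the binomial split of UMIs for ratios). Depth was 5504832 UMIs over 792 WT, 7228896 over 1039 RARα-KO and 545398 over 101 RARα-TG CD8 T cells, so RARα-TG ratios are the least precise. Named genes were the highest by level, the extreme ratios or main regulators of a list, and outside the lists the 10 highest and lowest ratios with 50 or more UMIs, with the 5 highest and lowest between genotypes. Several effector genes were chosen after their values were seen. The members, lists and rule were chosen with earlier results of these data known. Alternatives covered the gate, depth, hashtag rule, mixed cells, clonotype weights, scaling and count filters. The limit of 5000 UMIs and the joining of clonotypes by beta sequence were added after the data had been seen. The scripts ran in Python 3.11.15 with pandas 2.3.3, scipy 1.17.1, numpy 2.4.6 and matplotlib 3.10.9. The ratio intervals and the 2-fold call were tested on simulated gene sums, drawn without a spread between cells. The other steps were not simulated.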

Additional observations from a re-analysis of the deposited data

Results flagged for a closer look

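The summed effector transcription factors were at a log2 ratio of proliferating to non-cycling CD8 T cells of -0.27 for WT and -0.33 for RARα-KO, and at 0.51 for RARα-TG. The medians over the genes of this list were below 0 in all 3 genotypes, at -0.29, -0.50 and -0.05 in the same order. Without mixed cells these medians were -0.23, -0.32 and 1.02. The summed glycolysis genes were at 0.27 for WT, -0.39 for RARα-KO and -0.23 for RARα-TG. The mitochondrial transcripts were at -0.15 for WT, -0.16 for RARα-KO and 0.14 for RARα-TG. These results stood out because the summed levels of the genotypes lay on opposite sides of 0, with 1 sample each, and the differences between genotypes were not tested. The RARα-TG values rest on 8 proliferating cells.

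Outside the cells with a clonotype, 32 of 406 barcodes with Cd8a and without Cd4 (7.88%, 5.45 to 10.9) also met the 4-gene threshold. Of these, 12 had 3 or more UMIs and 8 had 10 or more UMIs of markers of other cell types, and their median depth was 17119 gene UMIs.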

How the results depend on the processing

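The glycolysis list (0.07 as reported) and the RARα-KO to WT cytokine median (-0.01) changed sign under some alternatives below. So did the RARα-KO to WT medians of the G2/M (0.05), cytotoxic (0.02), memory (0.05) and inhibitory (0.01) lists. For RARα-TG to WT, the S (-0.13) and G2/M (0.05) medians changed sign, and the cytokine median went from -0.997 to 0.23 when thinned to 2000 UMIs. No list past 2-fold did. Of the values compared, 294 main values and 72 values of the RARα-TG to WT list medians moved by less than their counting interval, or stayed within 1.5 times for a count, and 36 main values moved. List values here are median log2 ratios averaged over the genotypes unless stated. At 3 or more UMIs of the 4 genes, the cytotoxic list was at -0.29. With a hashtag 10 times above the next, the WT share was 17.5%, that of WT clonotypes of 1 cell 26.1% and of 10 or more cells 18.2%, the licensing list was at 2.57, the cytotoxic list at -0.14, and the RARα-KO to WT cytokine median at 1.11. Without mixed cells, the cytotoxic list was at -0.27, glycolysis at -0.16 and the cytokine median at 0.99. In cells of 5000 or more UMIs, the shares were 14.6% for WT, 14.6% for RARα-KO and 17.8% for RARα-TG, the cytotoxic list was at -0.19 and 24 genes were 2-fold lower in all genotypes. With each clonotype weighing the same, the memory list was at -1.39, the cytotoxic at -0.26, the inhibitory at -0.22, glycolysis at 0.22 and the cytokine median at 0.81. Thinned to 2000 UMIs, the licensing list was at 2.56, the spindle list at 3.27, the cytotoxic at -0.28, the inhibitory at -0.11 and the cytokine median at 1.80, and 99 genes were 2-fold higher and 6 lower. Against all cells below the threshold, the licensing list was at 2.46. In WT and RARα-KO alone, 710 genes were higher and 174 lower. Glycolysis was at 0.33 in WT alone and -0.31 in RARα-KO alone. In RARα-TG alone the licensing list was at 1.73, spindle at 3.58, memory at -1.22 and inhibitory at -0.27. The causes were not tested. The phase lists hold no histone gene, so leaving histones out of them changed nothing by construction. No paired analysis was possible because each genotype is 1 sample and no test was made. With 8 RARα-TG members, differences in single genes were not detectable at this depth unless large.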
